A study of Homo sapiens with 6 samples.

Results

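The proteasome subunit genes are those with a PSMA, PSMB, PSMC, PSMD, PSME, PSMF or PSMG symbol and a number in the array's annotation, counted only through probe sets that name a single gene, and here they came to 44 of the 18132 genes measured. RefSeq lists 48 genes with such a symbol, and PSMA6, PSMC5, PSMD7 and PSMD13 were not analysed here. Each gene is read from its brightest probe set, by mean log2 value in the 6 samples. They were followed in the human glioblastoma cell line U87, in which either miR-151a (the group labelled miR-151a UP, 3 samples) or a negative control microRNA (miR-NC, 3 samples) was overexpressed. Both groups thus carry an overexpressed microRNA. The labels do not state the delivery, the arm of miR-151a that was raised or the duration, and all samples come from 1 cell line. Whether replicates were grown as separate cultures is not stated either, so p-values cover only the spread among these 6 samples, possibly a technical one.

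The proteasome is the barrel-shaped protease that degrades ubiquitin-tagged proteins. Its core particle is built from alpha rings (PSMA genes), which gate the channel, and beta rings (PSMB genes), which hold the proteolytic sites. A regulatory particle of ATPases (PSMC genes) and non-ATPase subunits (PSMD genes) binds, deubiquitinates and unfolds the substrate. Interferon-inducible subunits encoded by PSMB8, PSMB9 and PSMB10 can replace the catalytic ones to form the immunoproteasome, and the PSME genes encode alternative activators of the core. Tumour cells, glioblastoma cells among them, depend on this machine, and human cells raise its subunit genes together through the transcription factor NFE2L1 when proteasome activity is blocked.

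The 6 arrays were alike, with median probe set intensities from 57.1 to 58.6 and lower quartiles from 14.9 to 15.6, and the number of arrays limits the precision. Among genes that mark U87 cells, VIM, CD44, FN1 and IL13RA2 were bright, the lowest value among them being 1241 for IL13RA2. GFAP was near the array median at 60.0 to 62.8 with miR-151a and 62.5 to 63.6 with miR-NC, and S100B, an astrocyte marker, was at 17.6 to 22.0 and 17.5 to 20.2. OLIG2 was at 60.2 to 67.9 with miR-151a and 52.7 to 63.5 with miR-NC. SOX2 lay below the array median, at 45.7 to 49.6 and 44.8 to 51.8. CHI3L1 was at 240 to 262 with miR-151a and 267 to 288 with miR-NC, and NES at 129 to 142 and 161 to 169. The neural stem cell marker NES fell by 19.1% (adjusted p = 0.0079, limma), the 1 marker of 10 past the threshold. That is 10% called, where 15.4% of all genes were called. CD44 and IL13RA2 fell by 10.2% and 11.1% and did not pass (adjusted p = 0.11 and 0.088, limma). In 4 of the 10 all miR-151a values lay below all miR-NC values and in 0 above. The groups were apart for 34.5% of all genes. None of 7 leukocyte, endothelial and epithelial markers passed in limma (1 had an unadjusted p under 0.05). Their summed intensities were 139 to 144 with miR-151a and 146 to 158 with miR-NC, so their sum did not overlap between groups. PTPRC, CD14 and CDH1 lay below the lower quartile in every sample, and no marker was at 0. For beta-actin, the control probe set at the 3 prime end over that at the 5 prime end gave a log2 ratio of 0.27 to 0.30 with miR-151a and 0.37 to 0.43 with miR-NC. The same ratio for GAPDH overlapped between groups, at 0.045 to 0.052 with miR-151a and 0.029 to 0.049 with miR-NC. The part of these differences in the results below was not tested.

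Proteasome subunit genes differed little between miR-151a UP and miR-NC samples. In a limma fit over all genes with a Benjamini-Hochberg adjusted p threshold of 0.05, 1 of 44 rose (PSMD8), 2 fell (PSMB3 and PSMD10) and 41 did not pass, that is 6.82% called, where 15.4% of all genes were called, 7.27% higher and 8.11% lower. The log2 fold changes (miR-151a UP minus miR-NC, of log2(intensity + 1)) ran from -0.19 to 0.30, from a fall of 12.2% to a rise of 22.9%. Their median was -0.01, and that of all genes was -0.01. The median size of change, whatever its sign, was 0.06 for the 44 genes and 0.09 for all genes. Of the 44 intervals of the fit (95%), 37 lay wholly between -0.25 and 0.25, a share of 84.1%, against 51.9% of all genes; this bound was chosen after the values were seen.

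**Figure D1:**
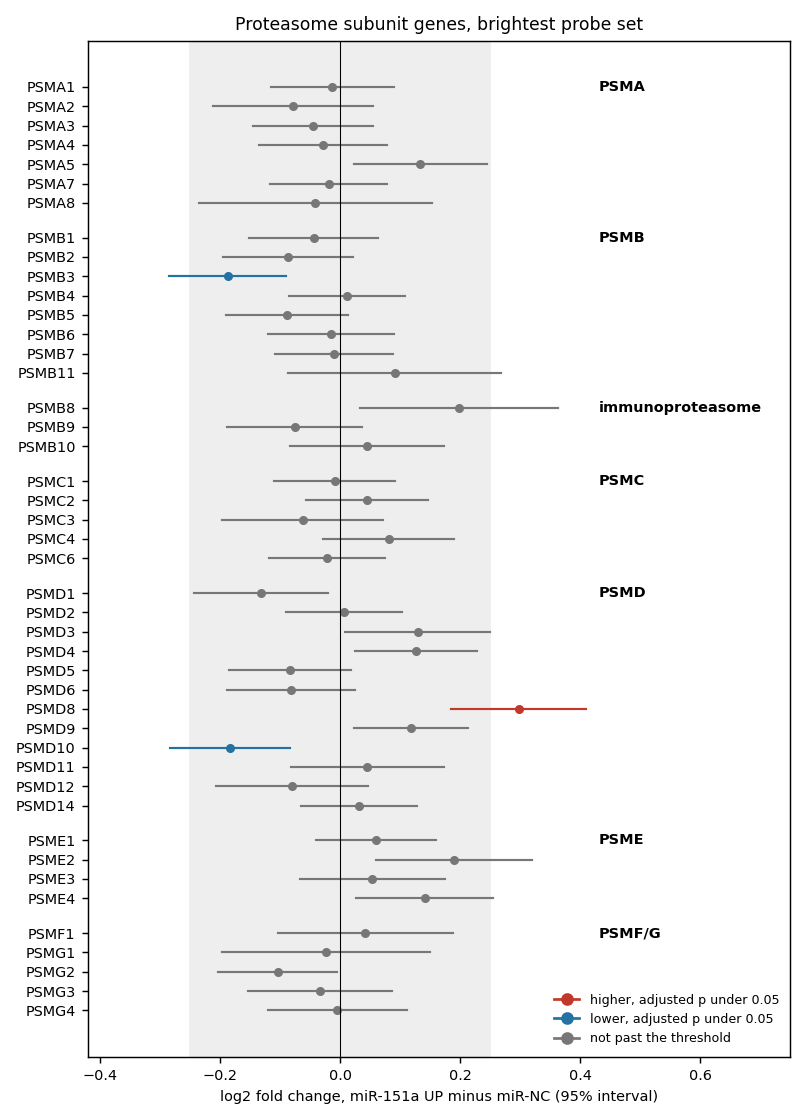
Log2 fold change of each proteasome subunit gene (points, brightest probe set) with its 95% interval (lines) on the x axis, miR-151a UP minus miR-NC, n = 3 per group, ordered by subunit group down the page; the grey band spans -0.25 to 0.25. PSMD8 lies to the right at 0.30, PSMB3 and PSMD10 to the left at -0.19 and -0.18, and the other genes scatter on both sides of 0.

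The share called differed between forms of the fit. The 44 genes varied little within groups, with a median SD of 0.039 on the log2 scale, against 0.075 for all genes, and the part of this in the shares was not tested. With robust estimates of a spread that may follow the level (the variance trend), 14 of the 44 passed, 8 higher and 6 lower, a share of 31.8%, where 23.3% of all genes were called. With a pseudocount of 32, 10 passed, a share of 22.7%, where 21.9% of all genes were called. At an unadjusted p under 0.05 the shares were 27.3% for the 44 genes and 28.8% for all genes, and miR-151a and miR-NC values were apart, with no overlap, in 17 of the 44, or 38.6%, and in 34.5% of all genes. The share of the 44 genes was thus above that of all genes with the trend and close to it with the larger pseudocount. PSMD8 passed in all 14 fits and 29 genes passed in none.

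**Figure D2:**
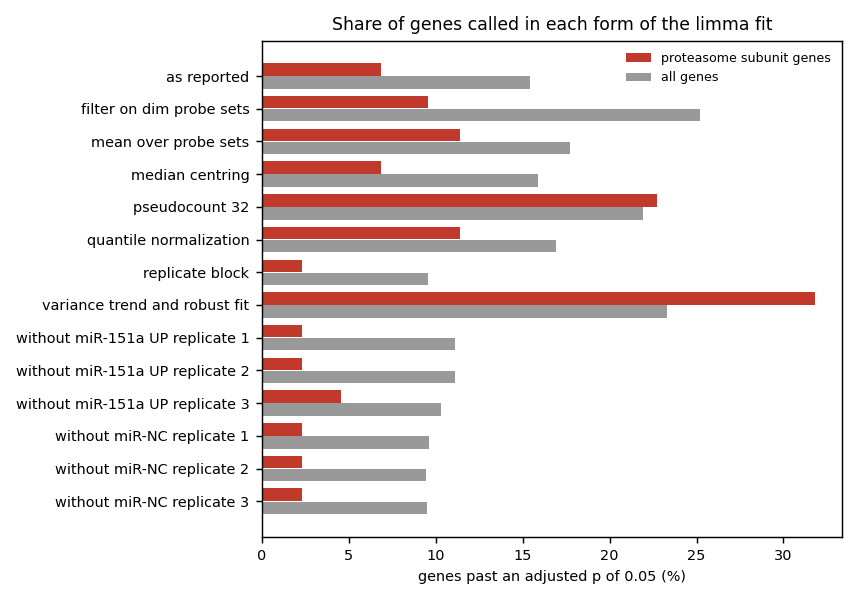
Share of genes past an adjusted p of 0.05 (x axis, percent) in each form of the limma fit (rows), for proteasome subunit genes (red, upper bar) and all genes (grey, lower bar). The red bar is the shorter one as reported (6.82% and 15.4%) and the longer one with a variance trend (31.8% and 23.3%).

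PSMD8 encodes a lid subunit of the regulatory particle. Its intensities were 2765, 2999 and 2810 with miR-151a, against 2330, 2297 and 2348 with miR-NC. All miR-151a samples lay above all miR-NC samples. The rise was 22.9% (log2 fold change 0.30, standard error 0.05, 95% interval 0.18 to 0.41, adjusted p = 0.0062, limma). The gene's next probe set moved alike, at 0.30 with 2289, 2466 and 2316 against 1955, 1864 and 1922. Its dimmest probe set did not, at -0.03, and the mean over probe sets gave 0.19 (adjusted p = 0.017), where that fit called 17.7% of all genes.

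PSMB3, a beta-ring subunit without proteolytic activity, had intensities of 2864, 2946 and 2932 with miR-151a, against 3282, 3334 and 3342 with miR-NC. The groups were well apart for their spread, and its single probe set fell by 12.2% (log2 fold change -0.19, 95% interval -0.29 to -0.09, adjusted p = 0.022, limma). PSMD10 encodes gankyrin, a chaperone for assembly of the ATPase ring that is known as an oncoprotein in liver cancer. Its intensities were 782, 787 and 816 with miR-151a, against 899, 914 and 898 with miR-NC, a fall of 12% (-0.18, -0.28 to -0.08, adjusted p = 0.026). Its dimmer probe set was at -0.10 and did not pass, although its groups were apart too, as they were for 33.8% of all probe sets. Both calls sit near the threshold. The adjusted p of PSMB3 was 0.0577, 0.0501 and 0.0604 without miR-151a UP replicates 1, 2 and 3 and 0.0587, 0.0811 and 0.0784 without miR-NC replicates 1, 2 and 3. That of PSMD10 was 0.0669 and 0.0720 without miR-151a UP replicates 1 and 2 and 0.0718, 0.0961 and 0.0772 without miR-NC replicates 1, 2 and 3. Over all alternatives the values ran from 1.6e-05 to 0.081 for PSMB3 and from 0.00038 to 0.096 for PSMD10.

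**Figure D3:**
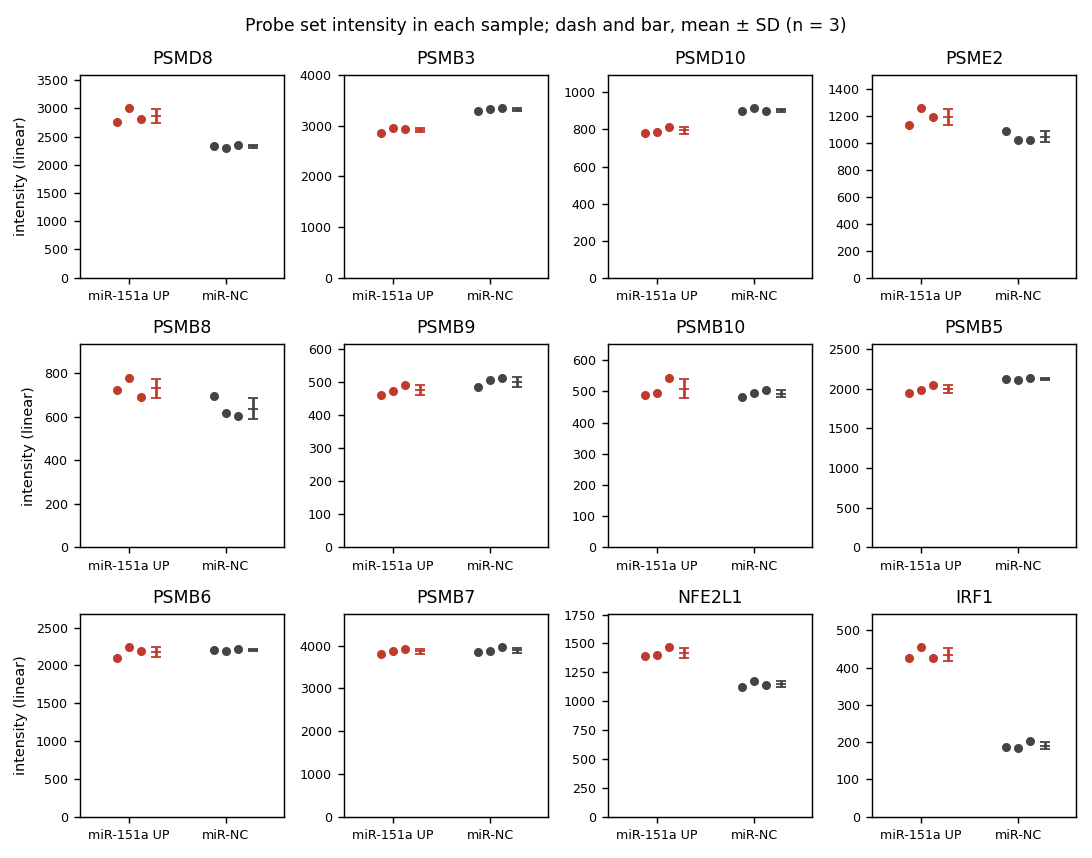
Intensity (y axis, linear, from 0) of 10 proteasome subunit genes and of the transcription factor genes NFE2L1 and IRF1 in each sample, miR-151a UP (red) left of miR-NC (dark grey); points are samples, and dash and bar give the mean and SD (n = 3). PSMD8 is higher and PSMB3 and PSMD10 are lower in all miR-151a samples, by far less than IRF1 is higher. The groups of PSMB8, PSMB9, PSMB10, PSMB6 and PSMB7 overlap, those of PSMB8 by a narrow margin.

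The promoters of these 3 genes are shown because they carry the changes, and that of PSME2 because it had the smallest adjusted p among the genes that did not pass. Each run is the 250 bases before the gene's start in RefSeq on GRCh38.p14, read 5′ to 3′ on the gene's strand, with matches to any searched motif in capitals. The regions are chr19:38374321-38374570 (plus strand) for PSMD8, chr17:38752491-38752740 (plus) for PSMB3, chrX:108091543-108091792 (minus) for PSMD10 and chr14:24146611-24146860 (minus) for PSME2.
PSMD8: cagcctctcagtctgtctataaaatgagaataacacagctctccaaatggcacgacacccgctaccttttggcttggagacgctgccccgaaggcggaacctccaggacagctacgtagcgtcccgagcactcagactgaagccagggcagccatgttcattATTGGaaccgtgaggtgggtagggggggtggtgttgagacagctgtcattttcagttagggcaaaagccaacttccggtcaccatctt
PSMB3: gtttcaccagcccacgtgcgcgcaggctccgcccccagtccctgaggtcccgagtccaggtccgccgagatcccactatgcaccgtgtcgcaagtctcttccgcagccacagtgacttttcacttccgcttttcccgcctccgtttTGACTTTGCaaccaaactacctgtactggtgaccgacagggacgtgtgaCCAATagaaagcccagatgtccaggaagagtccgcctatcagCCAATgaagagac
PSMD10: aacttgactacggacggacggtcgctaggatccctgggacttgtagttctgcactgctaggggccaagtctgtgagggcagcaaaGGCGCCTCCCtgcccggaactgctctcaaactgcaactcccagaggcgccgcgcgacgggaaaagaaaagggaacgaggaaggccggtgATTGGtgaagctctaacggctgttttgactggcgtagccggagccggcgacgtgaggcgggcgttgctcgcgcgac
PSME2: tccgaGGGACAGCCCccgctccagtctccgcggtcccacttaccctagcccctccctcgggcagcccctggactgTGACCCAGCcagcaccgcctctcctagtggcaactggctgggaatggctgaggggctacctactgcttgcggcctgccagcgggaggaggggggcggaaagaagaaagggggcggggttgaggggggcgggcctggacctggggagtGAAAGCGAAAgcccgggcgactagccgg

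Each motif was searched on both strands in windows from 250 bases before to 50 bases after the start, which RefSeq gave for 38 of the 44 genes. The antioxidant response element core (TGACNNNGC), the site type bound by NFE2L1 and NFE2L2 with small MAF partners, was in 13 of 38 (34.2%), against 13.6% of all 27305 promoters and 14.3% of 15843 promoters of protein-coding genes. The interferon-stimulated response element core (GAAA repeated after any 2 bases) was in 6 of 38 (15.8%), among them PSMB10, PSME1 and PSME2, against 3.65% of all promoters. The NF-kB core (GGGA, any 4 bases and CC) was in 8 of 38 (21.1%), against 25.1% of all promoters. CCAAT, the NF-Y motif, was in 17 of 38 (44.7%), against 35.7% of all promoters. No match overlapped a match to another of these motifs, and the median GC content was 62.0% in the 38 windows and 62.7% in those of protein-coding genes. The genes with the antioxidant core had a median log2 fold change of -0.02 and those without it -0.01, and of the 3 genes called in the reported fit PSMB3 holds that core; all 3 hold CCAAT. A match describes letters in a window and is not a binding site.

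The alpha-ring genes differed little between the groups. None of 7 PSMA genes passed in limma (1 had an unadjusted p under 0.05), where 15.4% of all genes did. At that share a count of 0 among a few genes says little, here and in the small groups below. Their log2 fold changes ran from -0.08 to 0.13 with a median of -0.03. PSMA5 had the smallest p: its intensities were 3590, 3707 and 3666 with miR-151a, against 3189, 3399 and 3412 with miR-NC. These groups did not overlap, but the log2 fold change of 0.13 (95% interval 0.02 to 0.24) did not pass (adjusted p = 0.11). It passed in 2 of 13 alternatives, with an adjusted p of 0.026 with a pseudocount of 32 and 0.0018 with the variance trend. PSMA8, a testis-specific alpha subunit, was dim, at 7.53 to 9.06 with miR-151a and 7.89 to 9.34 with miR-NC, under the lower quartile throughout.

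The constitutive beta-ring genes included the fall of PSMB3 and no rise among 8, with a median of -0.03. That is 12.5% called, against 15.4% of all genes. PSMB5 carries the chymotrypsin-like site, the main target of proteasome inhibitor drugs. Its brightest probe set read 1945, 1989 and 2053 with miR-151a, against 2126, 2106 and 2137 with miR-NC, a log2 fold change of -0.09 (adjusted p = 0.23). The groups did not overlap there, whereas the other 4 probe sets of PSMB5 lay between 0.00 and 0.01. PSMB6, with the caspase-like site, had 2097, 2237 and 2194 with miR-151a, against 2199, 2187 and 2214 with miR-NC. PSMB7, with the trypsin-like site, had 3800, 3863 and 3926 with miR-151a, against 3852, 3866 and 3956 with miR-NC. Both overlapped between groups, with log2 fold changes of -0.02 and -0.01. PSMB11, the thymus-specific catalytic subunit, was as dim, at 8.39 to 9.67 with miR-151a and 7.53 to 9.05 with miR-NC. PSMA8 and PSMB11 were the 2 members that a filter at the 0.25 quantile of mean levels removed, and the other 42 had intensities of at least 200.5 in every sample.

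None of the 3 immunoproteasome genes passed in limma (1 had an unadjusted p under 0.05), where 15.4% of all genes did. PSMB8, which replaces PSMB5, had intensities of 720, 777 and 691 with miR-151a, against 693, 615 and 601 with miR-NC. The lowest miR-151a value lay just under the highest miR-NC value, and the log2 fold change was 0.20 (95% interval 0.03 to 0.36, adjusted p = 0.11). The second probe set of PSMB8, of nearly the same brightness, was at 0.08. PSMB9, which replaces PSMB6, had 460, 471 and 490 with miR-151a, against 483, 504 and 511 with miR-NC (log2 fold change -0.08, adjusted p = 0.36). PSMB10, which replaces PSMB7, had 489, 495 and 543 with miR-151a, against 481, 495 and 504 with miR-NC (0.04, adjusted p = 0.66). These 2 genes overlapped between groups and leaned to opposite sides.

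The balance of each immunoproteasome gene to the constitutive gene it replaces was compared as a log2 ratio within each array. For PSMB8 over PSMB5 the ratio was higher with miR-151a by 0.29 (95% interval 0.11 to 0.46), with -1.43, -1.35 and -1.57 in miR-151a samples, against -1.61, -1.77 and -1.83 in miR-NC samples. The groups did not overlap, and the exact two-sided permutation p was 0.1, the smallest that 3 against 3 allow (0.15 adjusted over the 3 ratios). The size rests on the probe sets taken: it was 0.15 with the mean over probe sets (0.03 to 0.26) and ran from 0.07 to 0.29 over the pairs of single probe sets. PSMB9 over PSMB6 differed by -0.06 (-0.17 to 0.05, exact permutation p = 0.2, adjusted 0.2) and PSMB10 over PSMB7 by 0.05 (-0.06 to 0.17, exact permutation p = 0.1, adjusted 0.15). The PSMB10 to PSMB7 ratios did not overlap between groups either, by a narrow margin, and their interval holds 0. A shift of 0.29, from the brightest probe sets, lay outside both of these intervals. The 0.15 from the mean over probe sets lay inside the interval of PSMB10 over PSMB7.

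The ATPase genes differed little. None of 5 PSMC genes passed in limma (0 had an unadjusted p under 0.05), where 15.4% of all genes did. Their log2 fold changes ran from -0.06 to 0.08. PSMC4, whose protein binds the chaperone PSMD10 during assembly, had 773, 799 and 781 with miR-151a, against 762, 713 and 751 with miR-NC. These did not overlap, but the difference of 0.08 did not pass (adjusted p = 0.32).

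The PSMD group held both the rise of PSMD8 and the fall of PSMD10 among 12 genes, and 10 did not pass. That is 16.7% called, against 15.4% of all genes. In 8 of the 12 all miR-151a values lay on one side of all miR-NC values, 4 higher and 4 lower, where the groups were apart for 34.5% of all genes. The scaffold gene PSMD1 was at -0.13 and the other scaffold gene, PSMD2, at 0.01 (adjusted p = 0.11 and 0.95). PSMD4, a ubiquitin receptor, was at 0.13 (adjusted p = 0.10), and PSMD14, the deubiquitinase of the lid, at 0.03 (adjusted p = 0.69). PSMD5 and PSMD9, assembly chaperones like PSMD10, were at -0.08 and 0.12 (adjusted p = 0.26 and 0.10). The lid genes PSMD3, PSMD6 and PSMD11 were at 0.13, -0.08 and 0.05 (adjusted p = 0.15, 0.29 and 0.66). Subunits of the same particle thus lay on both sides of 0.

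The brightest probe sets of all 4 activator genes had fold changes above 0. None passed in limma (2 had an unadjusted p under 0.05), where 15.4% of all genes did. With the mean over probe sets 2 of the 4 lay below 0, PSME3 at -0.07 and PSME4 at -0.02. PSME2, which with PSME1 forms the interferon-inducible activator, had 1131, 1256 and 1189 with miR-151a, against 1091, 1022 and 1020 with miR-NC. The groups did not overlap, and the log2 fold change of 0.19 (95% interval 0.06 to 0.32) had an adjusted p of 0.060. It passed in 5 of 13 alternatives, in a range from 0.00095 to 0.17. Pseudogenes in RefSeq carry the name of 19 of the 44 genes: 6 that of PSME2, and 3, 2 and 1 those of the called genes PSMD10, PSMB3 and PSMD8. The probe set of PSME2 is of the kind shared between sequences, so its value is uncertain to that extent. PSME1 was at 0.06 (adjusted p = 0.43), the nuclear activator gene PSME3 at 0.05 (adjusted p = 0.57) and PSME4, a large activator of the core, at 0.14 (adjusted p = 0.10).

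Assembly and inhibitor genes did not pass either. This group holds PSMF1, which encodes a proteasome-binding inhibitor, and PSMG1 to PSMG4, the chaperones that build the alpha ring. Of its 5 genes 0 passed in limma (1 had an unadjusted p under 0.05), where 15.4% of all genes did. PSMG2 had the smallest p, with 1440, 1456 and 1455 in miR-151a samples, against 1570, 1589 and 1521 in miR-NC samples. The groups were apart, and the log2 fold change was -0.10 (adjusted p = 0.15). PSMG1, the partner of PSMG2, was at -0.02, with 1202, 1430 and 1186 against 1278, 1286 and 1304. PSMG3, PSMG4 and PSMF1 were at -0.03, -0.01 and 0.04.

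Probe sets of a gene did not always move alike. Of 108 probe sets of these genes, 2 were higher and 7 lower past an adjusted p of 0.05 over all probe sets, or 8.33%, where 14.1% of all probe sets were called, 6.81% higher and 7.27% lower. Of these 9, 6 were not the brightest of their gene. PSMD12, a lid subunit, is the clearest case: its brightest probe set was at -0.08 and did not pass, with 1040, 1131 and 1162 against 1192, 1179 and 1150. The next, nearly as bright, had 959, 999 and 906 with miR-151a, against 1286, 1188 and 1191 with miR-NC, a log2 fold change of -0.36 (adjusted p = 0.0072), and the one after it was at -0.22 (adjusted p = 0.035). With the mean over probe sets PSMD12 was lower, at -0.19 (adjusted p = 0.021), and in the other fits its adjusted p reached 0.71.

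For PSME4 the brightest of 6 probe sets was at 0.14, and 1 dim probe set was lower at -0.39, with 90.9, 98.2 and 99.3 against 123, 118 and 140. Its other 4 lay between -0.03 and 0.08. For PSMF1 1 of 6 was lower, at -0.22, beside others from -0.34 to 0.14 that did not pass. PSMD9 had its brightest at 0.12 and a dim one lower at -0.19. PSME4, PSMF1, PSMD9, PSME3 and PSMC2 changed sign when probe sets were averaged, to -0.02, -0.10, -0.04, -0.07 and -0.02, none past the threshold (adjusted p = 0.74, 0.16, 0.54, 0.39 and 0.87).

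**Figure D4:**
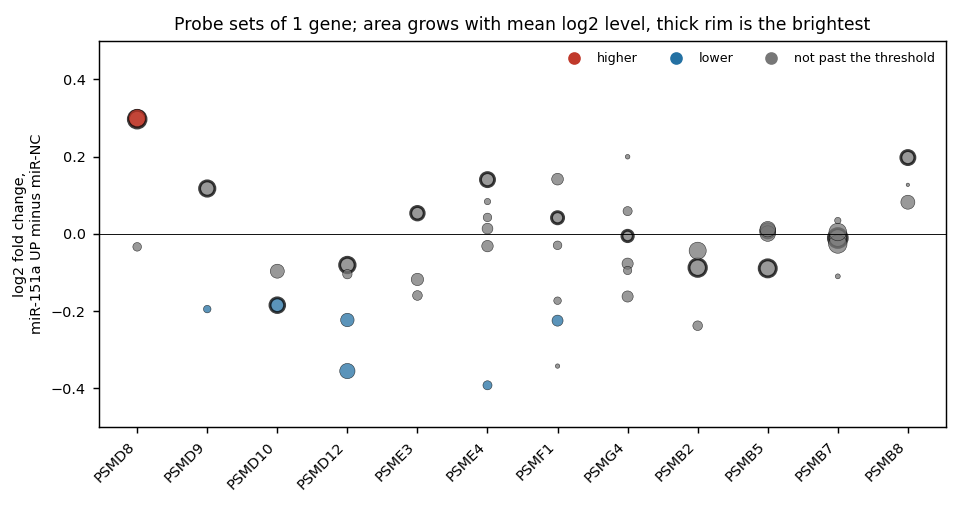
Log2 fold change (y axis, miR-151a UP minus miR-NC) of every probe set of 12 proteasome subunit genes (x axis); the area of a circle grows with mean log2 level, the thick rim marks the brightest, and colour gives the call over all probe sets. PSMD8 has 2 bright probe sets at 0.30, and the calls of PSMD9, PSMD12, PSME4 and PSMF1 are falls of probe sets that are not the brightest.

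Genes that work with the proteasome but carry other symbols also moved little by their brightest probe sets. Their median size of change was 0.07, against 0.09 for all genes. Of 12 measured bound factors and assembly genes, 1 rose, 0 fell in limma (2 with an unadjusted p under 0.05 were lower) and 11 did not pass, with a median of 0.01. That is 8.33% called, where 15.4% of all genes were called. In 3 of the 12 all miR-151a values lay above all miR-NC values, and in 4 below them. The groups were apart for 34.5% of all genes. The gene that rose was ZFAND2A, which encodes an arsenite-inducible proteasome-binding protein, by 12.2% (log2 fold change 0.17, adjusted p = 0.042, and 0.0029 to 0.13 in the alternatives). POMP, the maturation factor of the core, had 1932, 1936 and 1970 with miR-151a, against 2030, 2099 and 2047 with miR-NC, a difference of -0.08 that did not pass (adjusted p = 0.26). For USP14, a deubiquitinase of the regulatory particle, 3 of 4 probe sets were lower, and its brightest, at -0.12, did not pass (adjusted p = 0.15). The mean over its probe sets gave -0.22. For ECPAS 1 of 2 probe sets was lower, at -0.42, and its brightest, at -0.04, did not pass (adjusted p = 0.60). For ZFAND5 1 of 9 probe sets was higher.

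The transcription factor genes that act on proteasome promoters did change. Of 9 measured genes of the NFE2L1 axis, 4 rose, 1 fell and 4 did not pass, with a median of 0.08. The share called was 55.6%, against 15.4% of all genes. NFE2L1 had intensities of 1389, 1401 and 1465 with miR-151a, against 1125, 1174 and 1136 with miR-NC. All miR-151a values were higher, by 23.8% (log2 fold change 0.31, 95% interval 0.20 to 0.42, adjusted p = 0.0043), and each of its 6 probe sets passed as higher, from 0.31 to 0.56. NFE2L2, its relative in the oxidative stress response, rose by 38.2% (adjusted p = 0.00054). The small MAF partner genes MAFF and MAFG rose by 54.4% and 36.9% (adjusted p = 0.00041 and 0.0013). SYVN1, a ubiquitin ligase of the endoplasmic reticulum that turns NFE2L1 protein over, fell by 11.4% with an adjusted p of 0.0493, close to the threshold (0.0065 to 0.14 in the alternatives). NGLY1 and DDI2, whose products process NFE2L1 into its active form, were at 0.04 and 0.08 (adjusted p = 0.63 and 0.52). DDI2 was below the array median, at 27.1 to 30.7 with miR-151a and 25.8 to 29.8 with miR-NC. The probe sets of NGLY1 ran from -0.24 to 0.10 and those of DDI2 from -0.08 to 0.13, none past the threshold. The list was drawn up with earlier results of these data known, and messenger RNA levels do not show NFE2L1 activity, which is set largely by processing of the protein.

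**Figure D5:**
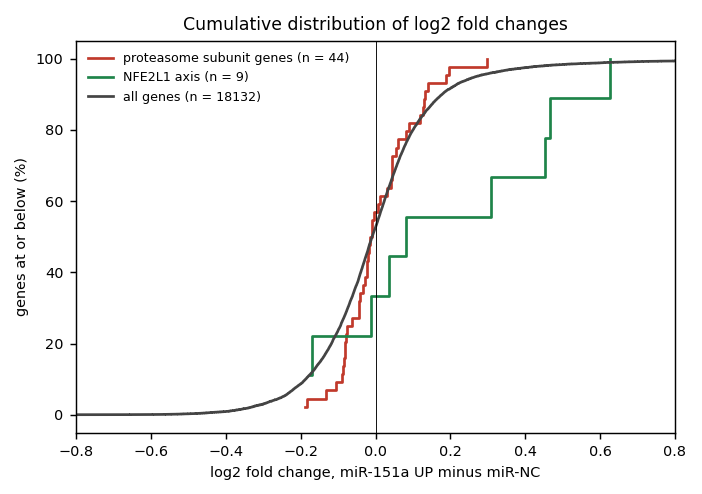
Cumulative share of genes (y axis, percent) at or below each log2 fold change (x axis, miR-151a UP minus miR-NC) for the 44 proteasome subunit genes (red), 9 genes of the NFE2L1 axis (green) and all 18132 genes (dark grey). The red curve is steep around 0, from -0.19 to 0.30, and the green one reaches 0.63. The axis leaves out the outermost of all genes.

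Among 13 measured ubiquitin, E1, shuttle and VCP complex genes, 2 rose, 1 fell and 10 did not pass, with a median of -0.02. That is 23.1% called, where 15.4% of all genes were called. SQSTM1, which encodes a ubiquitin-binding autophagy receptor, rose by 35.3% (adjusted p = 0.0017), with all of its 5 probe sets higher. RAD23B, a shuttle that carries ubiquitinated proteins to the proteasome, rose by 15.8% (adjusted p = 0.021), and UBQLN4, another shuttle, fell by 16.4% (adjusted p = 0.029). Over the alternatives the adjusted p of RAD23B ran from 2.6e-05 to 0.079 and that of UBQLN4 from 0.0031 to 0.14. Of the 5 probe sets of RAD23B, which ran from -0.17 to 0.36, 3 were higher. Of the 2 of UBQLN4, at -0.26 and -0.09, 1 was lower. UBB, a polyubiquitin gene, and UBA1, the main ubiquitin-activating enzyme gene, were at -0.07 and 0.10 (adjusted p = 0.32 and 0.22).

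Of 8 measured genes that act with the immunoproteasome in class I antigen presentation, 1 rose and 0 fell in limma (0 lower at an unadjusted p under 0.05). The share called was 12.5%, where it was 15.4% over all genes. IRF1, a transcription factor that induces PSMB9 and TAP1 in interferon responses, had 425, 454 and 425 with miR-151a, against 186, 185 and 202 with miR-NC, a log2 fold change of 1.18 (95% interval 1.05 to 1.31, adjusted p = 1.8e-05), and each of its 4 probe sets was higher. TAP1, the peptide transporter gene, had 241, 280 and 261 with miR-151a, against 258, 249 and 246 with miR-NC (0.05, adjusted p = 0.64). In the same samples PSMB9 was at -0.08. The light chain gene B2M was at 0.07 (adjusted p = 0.41) and NLRC5, an activator of class I genes, at 0.15 (adjusted p = 0.057).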

How the data were processed

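Intensity values per probe set are those deposited by the authors, positive and linear, with 1 column per sample; the submitters' processing notes name MAS5 without version or role; no source used here gives the background correction, summarization or scaling. Of 49395 probe sets, 102 controls were left out of the tests. The annotation table named 1 gene for 44988 probe sets, several for 1832 (left out of gene tests) and none for 2473, and symbols were updated through Entrez identifiers to RefSeq (GRCh38.p14). PSMA6, PSMC5, PSMD7 and PSMD13 were not analysed here. Intensities were transformed as log2(intensity + 1) and fitted with limma 3.58.1 in R 4.3.3 over all 18132 genes, or all 49293 probe sets, without covariates; adjusted p-values are Benjamini-Hochberg over the whole table. The fit was tested on simulated data in which 200 of 18132 genes were changed. It recovered 29.9% of changes of 0.25 on the log2 scale, 91.0% of 0.5 and 100% of 1. Of its 157 calls 10 were false. More genes were called in the real data, so these shares need not hold there. Groups come from the sample titles. Same-numbered samples deviated together with correlations of -0.08, -0.12 and 0.07, so the numbers were not taken as pairs.

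Values in every sample are given for members that passed, for the smallest p in each group where none passed, for the immunoproteasome genes and those they replace, and for members whose probe sets are called in opposite directions (there were none); from other lists up to 3 passing genes by smallest p are named, with NFE2L1, POMP, TAP1 and IRF1. PSMD12, PSME4, PSMF1, PSMG1 and the remaining genes of other lists were singled out after their values were seen. Members and lists were chosen with earlier results of these data known. The alternatives were a pseudocount of 32, a filter at the 0.25 quantile of level, median centring, quantile normalization, the mean over probe sets, a trended variance with robust estimation, the replicate number as a block, and each sample left out. Some genes of the other lists are not reported here. Figures were drawn with matplotlib 3.10.9.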

Additional observations from a re-analysis of the deposited data

How the results depend on the processing

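Against 1 higher subunit gene as reported, 2 were higher when dim probe sets were filtered out, 2 when probe sets were averaged, 3 with quantile normalization, 6 with a pseudocount of 32 and 8 with a variance trend and robust fit. Against 2 lower, 3 were lower when probe sets were averaged, 4 with a pseudocount of 32 and 6 with the trend. With the replicate number as a block 0 were lower in limma (3 at an unadjusted p under 0.05), with adjusted p of 0.068 for PSMB3 and 0.079 for PSMD10, and 1 higher, and with 1 sample left out 0 to 1 were lower (2 to 3 at an unadjusted p under 0.05). Of probe sets, 7 and 9 were higher and 12 and 13 lower with the pseudocount and the trend, and 2 were lower with the block; with 1 sample left out 2 to 4 were lower. The median over the 44 genes was -0.025 with median centring, 0.0061 with quantile normalization and from -0.018 to 0.0043 with 1 sample left out. None of these alternatives reversed a called gene. Since the sample numbers do not pair the samples, calls lost under the block are not weaker effects. The block moved no other gene's call among the 44, and the 3 ratios kept their side of 0 in every alternative. The share of all genes called moved too: it was 15.4% as reported, 25.2% with the filter, 17.7% with averaging, 16.9% with quantile normalization, 21.9% with the pseudocount, 23.3% with the trend, 9.52% with the block and 9.43% to 11.1% with 1 sample left out. The cause of the higher counts with the pseudocount and the trend was not tested. Dim probe sets, such as those of PSMA8 and PSMB11, limit what can be seen of those genes, and deposited values already brought to a like scale cannot show a shift shared by most transcripts.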
